A study of Canis lupus familiaris with 77 samples.

Results

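The miRNAs described are 3 products of the paired miR-193 and miR-365 clusters in the dog. They are cfa-miR-193a, rno-miR-193b-3p and cfa-miR-365, and they were chosen by name from the 650 miRNAs detected in the series. The prefix names the species whose annotation gave the row (cfa dog, rno rat, hsa human). The row names give the arm of each product. cfa-miR-193a carries the name of the human 5p arm, rno-miR-193b-3p is a 3p arm, and cfa-miR-365 carries the names of the human and rat 3p arms. The table also holds 4 other rows from the same precursors, namely hsa-miR-193a-3p, cfa-miR-193b (the 5p arm), hsa-miR-365a-5p and hsa-miR-365b-5p. The rows hsa-miR-3653-3p and hsa-miR-3656 share the letters of the name but are unrelated miRNAs and were left out.

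An miRNA is a short RNA that lowers the output of target mRNAs through a seed near its 5′ end. It is cut from a hairpin precursor, and either strand of the hairpin, the 5p or the 3p arm, can be kept. Mammals carry a pair of these clusters, one with miR-193a and a copy of miR-365, the other with miR-193b and a further copy of miR-365. The miR-365 copies give the same mature 3p product, so a sequenced read of it cannot be traced to one cluster. In a RefSeq gene table made for the assembly UU_Cfam_GSD_1.0, which the reads were not aligned to, MIR365-1 and MIR193B are neighbours on chromosome 6 and MIR365-2 and MIR193A are neighbours on chromosome 9. The miR-193b and miR-365 cluster is known for its part in brown fat and muscle cell differentiation, and miR-193a is described mostly as a brake on cell growth.

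The 76 libraries came from 16 tissues of 5 untreated male Marshall beagles about 10 months old. The dogs were perfused with buffered saline so that less blood stayed in the organs. There were 5 libraries of each tissue except colon, with 4, and sciatic nerve, with 2, and how far the sciatic nerve RNA was pooled between dogs is described in more than 1 way. All tissues were untreated, so every comparison below is between tissues. Levels are RPM, reads per 1000000 reads on miRNAs, and depth ran from 157871 to 7896424 reads a library, so that 3 reads corresponded to 0.380 to 19.0 RPM.

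The label of each tissue was compared with miRNAs known to mark its main cells, over 14 tissues with such a marker. In 9 libraries the summed markers stood under 20% of the highest library of the same tissue. These were thymus replicates 2, 3 and 5, duodenum replicates 3, 4 and 5, testis replicates 2 and 3, and skeletal muscle replicate 4. The lymphocyte markers (miR-150, miR-181a, miR-181b and miR-142) summed to 471418 and 539012 RPM in thymus replicates 1 and 4. In thymus replicates 2, 3 and 5 they summed to 55501, 45577 and 57230 RPM. The intestinal epithelium markers (miR-192, miR-194 and miR-215) summed to 327964 and 521024 RPM in duodenum replicates 1 and 2, and to 23478, 5976 and 88623 RPM in replicates 3 to 5. In skeletal muscle replicate 4 the muscle miRNA miR-133a was at 676 RPM against 36539 to 108825 RPM in the other 4 libraries. In testis replicates 2 and 3 the germ cell miRNA miR-34c was at 4631 and 582 RPM against 49237 to 93353 RPM in the other 3. The limit of 20% was set after these values were seen, and the fits between tissues were repeated without these 9 libraries.

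miR-193b-3p was highest in liver. The 5 liver libraries held 975, 1072, 889.8, 1523 and 1502 RPM, a mean of 1192 ± 299 (SD, n = 5) against 122.4 over all other libraries. Every liver library lay above every other library in the series, the next highest being a skeletal muscle library at 534 RPM. This pattern held for 1.69% of the 472 miRNAs detected in liver. The fold of 9.74 and the exact two-sided rank-sum test (adjusted p = 6.39e-06) met the definition of tissue enriched (TE), which asks for a mean over 5 times the mean of the remaining samples and for an adjusted p under 0.05. TE was met by 1.91% of the miRNAs detected in liver. The liver median was 2.01 times the highest sample of any other tissue, short of the factor of 5 that marks highly tissue enriched (HTE) miRNAs. In bulk tissue, fewer cells of a type and less RNA per cell cannot be told apart, and this holds for each level given here.

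Below liver the medians of miR-193b-3p fell from 331 RPM in thymus to 7.42 RPM in pancreas. The place of thymus rested on replicates 2, 3 and 5, and the thymus libraries with high lymphocyte markers held 60.0 and 40.1 RPM. Skeletal muscle held 329, 263, 534, 263 and 171 RPM, and heart held 119.8, 188, 281, 179 and 252 RPM. The sciatic nerve libraries held 245 and 205 RPM. These ranges overlapped, and 9 tissues had a median above 100 RPM. Plasma, at 3.64 to 12.2 RPM, and pancreas were lowest. Pancreas held 7.15, 8.82, 7.42, 76.2 and 1.48 RPM, so that replicate 4 stood far above the other 4 libraries. Plasma and pancreas overlapped, and their difference did not pass (pancreas minus plasma 0.48 ± 0.61 on the log2 scale, SE, edgeR adjusted p = 0.554).

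miR-365 was also highest in liver, at a lower level and with a narrower lead. The 5 liver libraries held 414, 422, 356, 522 and 533 RPM, a mean of 449 ± 75.5 (SD, n = 5). They too lay above every other library, the next being thymus replicate 5 at 329 RPM. The fold over all other libraries was 5.01 (exact rank-sum test, adjusted p = 6.39e-06), so miR-365 met TE at the edge of the factor of 5. With libraries scaled by TMM the fold was 4.97 and the call was lost, and leaving out any 1 of 40 libraries also took the fold below 5, with a range of 4.77 to 5.26 over all 76. Without the 9 libraries that stood apart it was 5.85. Neither miR-193b-3p nor miR-365 met HTE in any tissue.

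The next tissues for miR-365 were thymus (median 290.3 RPM), skeletal muscle (153), heart (136) and sciatic nerve (132). The thymus libraries with high lymphocyte markers held 78.8 and 59.7 RPM, below the other 3. Lung was even, with 110.4, 126, 137, 126 and 116 RPM, a mean of 123 ± 10.2 (SD, n = 5). Jejunum (20.3 to 53.6 RPM), bone marrow (13.8 to 43.1 RPM) and plasma (7.28 to 43.6 RPM) were lowest. Pancreas, where the median of miR-193b-3p was lowest, held 48.3, 73.1, 61.8, 105 and 78.5 RPM of miR-365. The miR-365 levels in pancreas overlapped those in testis, brain and colon.

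miR-193a, the 5p arm, had fewer reads than both other members, and its pattern differed. It had 4342 reads in all, against 22017 of miR-193b-3p and 12974 of miR-365, and 3 of the 76 libraries held none. In thymus it was at 7.50, 374, 373, 19.6 and 461 RPM in replicates 1 to 5. The 3 high values were those of the libraries with low lymphocyte markers, and they were above every other library of the series. The sciatic nerve libraries held 105 and 94.5 RPM, heart held 34.6, 57.1, 25.5, 114 and 62.4 RPM, and duodenum held 4.52, 1.86, 39.7, 103 and 147 RPM. In liver, where both other members were highest, miR-193a held 29.1, 18.1, 24.4, 46.7 and 39.4 RPM, overlapping kidney, lung and brain.

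Thymus was the only tissue in which the median of miR-193a passed 100 RPM. The mean in thymus was 8.30 times that of all other libraries, but the exact rank-sum test did not pass (adjusted p = 0.501), as thymus replicates 1 and 4 lay among the lower libraries of the series. Without the 9 libraries the thymus fold was 0.499. miR-193a met TE in no tissue. In plasma it was at 0, 6.80, 0, 0.639 and 2.07 RPM, from 16 reads in all, and the count of 0 in replicate 1 allows a level of up to 10.9 RPM.

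**Figure D1:**
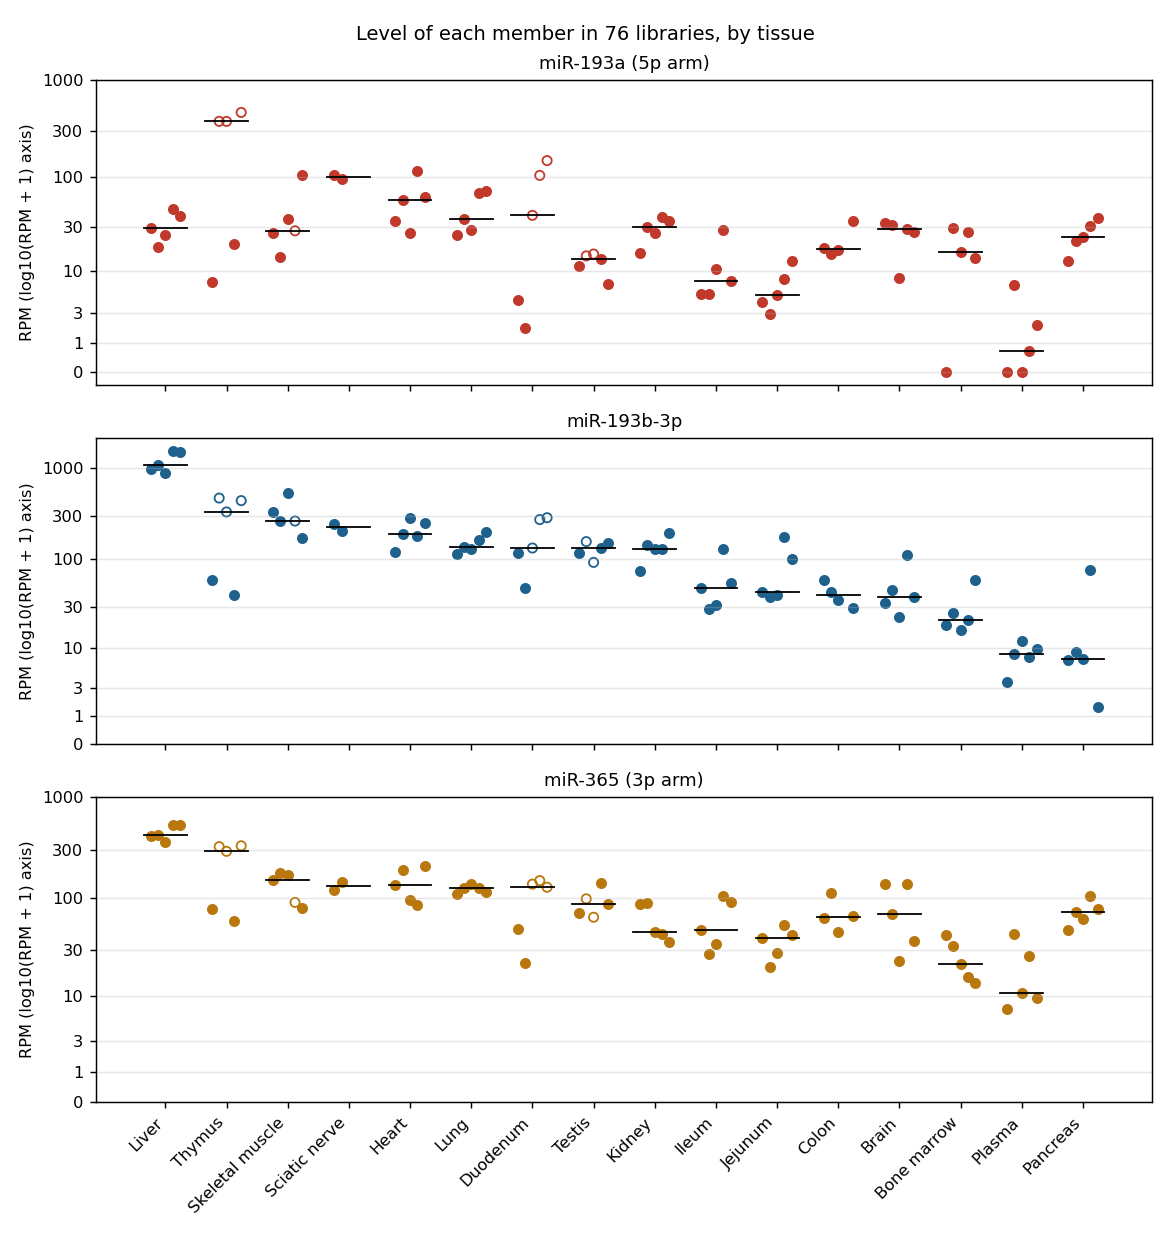
RPM of miR-193a, miR-193b-3p and miR-365 (3 panels, log10(RPM + 1) axis) in each of 76 libraries, by tissue in the order of the miR-193b-3p median. Points are libraries in replicate order, bars are tissue medians, and open circles are the 9 libraries whose label markers were under 20% of the highest library of the tissue. The 5 liver libraries lie above all others for miR-193b-3p and miR-365, and for miR-193a the 3 open circles of thymus do.

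A single edgeR fit to the counts of all tissues, scaled by TMM, then set each tissue against the average of the 15 remaining ones. Of 48 tests of the 3 members, 25 passed an adjusted p of 0.05, 14 higher and 11 lower. Over the 480 miRNAs fitted, 38.9% of such tests passed. All 3 members were called in the same direction in 5 tissues, higher in thymus, skeletal muscle and heart and lower in brain and plasma. Not all of these calls were stable, as given below. The thymus values turned without the 9 libraries, and the brain calls of miR-193a and miR-365 depended on the scaling. The miR-193a calls in skeletal muscle and heart were each lost without 1 library. In liver 2 of 3 were higher, and in pancreas 1 of 3 was lower. No tissue had members called in opposite directions. In colon, ileum, lung, sciatic nerve and testis no member passed.

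The fit without the 9 libraries also called 25 of the 48 tests, 13 higher and 12 lower, beside 42.3% over all miRNAs, but partly in other tissues. There miR-193a was higher in sciatic nerve by 2.26 ± 0.46 on the log2 scale (SE, adjusted p = 2.80e-05, against 1.60 and 0.0548 over all libraries). It was also higher in kidney by 1.32 ± 0.34 (adjusted p = 9.09e-04, against 0.81 and 0.216) and in lung by 1.14 ± 0.35 (adjusted p = 0.00745, against 0.52 and 0.554). miR-193b-3p was higher in sciatic nerve by 1.17 ± 0.46 (adjusted p = 0.0282, against 0.87 and 0.242). Whether the 2 sciatic nerve libraries come from separate dogs is not settled, so their p-values may not reflect a spread between dogs. The calls that were lost or turned, in thymus, duodenum and brain, are given with those tissues below.

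In liver the log2 fold change was 3.88 ± 0.29 (SE, adjusted p = 2.96e-19) for miR-193b-3p and 2.64 ± 0.25 (adjusted p = 2.23e-14) for miR-365. For miR-193a it was 0.24 ± 0.52 (adjusted p = 0.985). Of all miRNAs fitted, 23.3% were higher in liver. Both calls remained under every scaling, under DESeq2 and with each library left out in turn.

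In skeletal muscle, where 26.5% of miRNAs were higher, miR-193b-3p had a log2 fold change of 2.37 ± 0.33 (SE, adjusted p = 9.64e-09). For miR-365 it was 1.42 ± 0.29 (adjusted p = 5.97e-05) and for miR-193a 1.57 ± 0.53 (adjusted p = 0.0125). The last rested on replicate 5, at 105 RPM beside 14.1 to 36.4 RPM in the others, and without it the value was 0.39 (adjusted p = 0.722). Scaling by library size alone left only the miR-193b-3p call, with 0.64 (adjusted p = 0.319) for miR-193a and 0.70 (adjusted p = 0.0645) for miR-365. When the 9 libraries were left out, among them the skeletal muscle library that lacked muscle markers, all 3 were called. The values were 2.78 for miR-193b-3p, 1.84 for miR-365 and 2.34 for miR-193a. That fit kept replicate 5, so its miR-193a value still included the library at 105 RPM.

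In heart, where 21.9% of miRNAs were higher, the log2 fold changes were 1.46 ± 0.47 (SE) for miR-193a, 1.28 ± 0.36 for miR-193b-3p and 1.04 ± 0.30 for miR-365 (edgeR adjusted p = 0.00978, 0.00283 and 0.00301). Without heart replicate 4, the library with 114 RPM of miR-193a, that call was lost (0.95, adjusted p = 0.176). Without heart replicate 5 the miR-365 call was lost (0.76, adjusted p = 0.0720). In kidney miR-193b-3p was higher by 1.21 ± 0.36 (adjusted p = 0.00507). Without kidney replicate 2, 3 or 4, or either sciatic nerve library, it fell to between 0.85 and 0.98 and was not called, and it was not called with library size alone (0.45), with no filter (0.90) or by DESeq2 (0.91). With the 9 libraries left out it was called, at 1.35 ± 0.30 (adjusted p = 1.27e-04).

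At the low end, plasma had log2 fold changes of -3.36 ± 0.82 (SE) for miR-193a, -3.01 ± 0.56 for miR-193b-3p and -1.69 ± 0.40 for miR-365, with edgeR adjusted p of 3.00e-04, 3.80e-06 and 1.80e-04. Of all miRNAs 24.8% were lower in plasma. Bone marrow was lower in miR-193b-3p (-2.41 ± 0.55, adjusted p = 2.03e-04) and miR-365 (-2.35 ± 0.45, adjusted p = 9.51e-06), from 3 to 13 reads a library. Pancreas was lower in miR-193b-3p alone (-2.49 ± 0.51, adjusted p = 5.04e-05). Jejunum was lower in miR-193a (-2.15 ± 0.68, adjusted p = 0.00838) and miR-365 (-1.30 ± 0.37, adjusted p = 0.00371). The median log2 fold change of all miRNAs was itself -0.97 in bone marrow and -0.59 in plasma. It was -0.38 in pancreas, -0.09 in jejunum and 0.13 in brain. In brain, where 28.1% of miRNAs were lower, the values were -2.29 ± 0.50 for miR-193b-3p, -1.38 ± 0.37 for miR-365 and -1.30 ± 0.60 for miR-193a (adjusted p = 3.99e-05, 6.80e-04 and 0.0459).

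The brain calls depended on the scaling. Against TMM, library size alone moved the median log2 fold change of all miRNAs in brain by 1.09 and DESeq2 size factors moved it by 0.75. Over all tissues these shifts ran from -0.59 to 1.09 and from -0.42 to 0.75. The brain values of miR-193a and miR-365 were then -0.09 and -0.09 with library size and -0.49 and -0.55 with DESeq2 size factors, none of them called, while the miR-193b-3p call stayed. The miR-193a call in brain was also lost with no filter (-1.26, adjusted p = 0.0591), with the 9 libraries left out (-0.33, adjusted p = 0.488) and without any 1 of 8 libraries, Brain replicates 2, 3 and 4 among them.

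**Figure D2:**
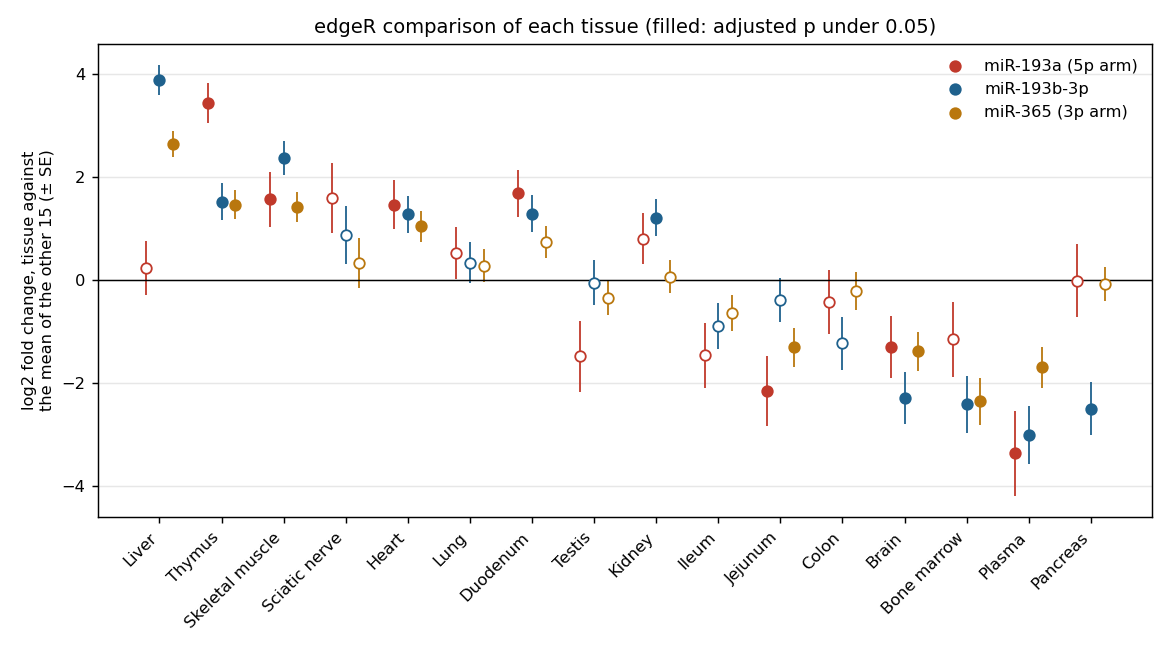
log2 fold change of each tissue against the mean of the other 15 tissues, with its standard error, for the 3 members in the edgeR fit. Filled points passed an adjusted p of 0.05 (25 of 48). The miR-193b-3p and miR-365 points are highest in liver, at 3.88 and 2.64, and the miR-193a point in thymus, at 3.43.

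The thymus and duodenum calls rested on the libraries that stood apart. In thymus the log2 fold changes were 3.43 ± 0.39 (SE) for miR-193a, 1.52 ± 0.35 for miR-193b-3p and 1.47 ± 0.29 for miR-365, with edgeR adjusted p of 7.19e-11, 5.77e-04 and 4.03e-05. Of all miRNAs 21.2% were higher in thymus. The thymus levels of miR-193b-3p were 60.0, 469, 331, 40.1 and 439.6 RPM, and those of miR-365 were 78.8, 323, 290.3, 59.7 and 329 RPM. Each member was thus higher in replicates 2, 3 and 5 than in replicates 1 and 4, with no overlap. Without the 9 libraries the direction turned for all 3 members. Over the 2 thymus libraries left, the values were -0.63 ± 0.63 for miR-193a, -1.16 ± 0.59 for miR-193b-3p and -0.41 ± 0.38 for miR-365, none of them called (adjusted p = 0.577, 0.161 and 0.525).

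Other marker lists moved with the same thymus libraries. Of 13 lists of cell type markers besides the lymphocyte list, 5 summed higher in replicates 2, 3 and 5 than in replicates 1 and 4 without overlap, 3 summed lower and 5 overlapped. The smooth muscle list (miR-143 and miR-145) summed to 92885 to 133634 RPM in these 3 libraries against 15956 and 33243 RPM. The endothelial miRNA miR-126 was at 26541 to 29193 RPM against 4287 and 9684 RPM, and the erythroid list (miR-144, miR-451 and miR-486) at 44926 to 92479 RPM against 4774 and 20569 RPM. The hepatocyte list was also higher, at 13.8 to 120.4 RPM in replicates 2, 3 and 5. So was the neuron list, at 36.5 to 70.97 RPM against 23.76 and 26.03 RPM. The 3 lower lists were cardiac, myeloid and testis, and the fibroblast list overlapped. None of the 4 lymphocyte markers was at 0 in any thymus library. The part of these differences in the members' levels was not tested.

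In duodenum, where 21.0% of miRNAs were higher, miR-193a had a log2 fold change of 1.68 ± 0.46 (SE, adjusted p = 0.00333) and miR-193b-3p of 1.28 ± 0.36 (adjusted p = 0.00417). The duodenum levels of miR-193b-3p were 117, 48.1, 133, 273 and 286 RPM, and those of miR-365 were 49.7, 22.4, 138, 149 and 128 RPM. All 3 members were higher in replicates 3, 4 and 5, the libraries low in epithelium markers, than in replicates 1 and 2. With the 9 libraries left out, miR-193a was lower in duodenum, by -2.99 ± 0.90 (adjusted p = 0.00870), miR-193b-3p was at -0.24 ± 0.54 (adjusted p = 0.957), and miR-365 was lower by -1.28 ± 0.42 (adjusted p = 0.0165). Without duodenum replicate 4 alone neither call was kept, and without replicate 5 the miR-193a call was lost. With library size alone miR-193b-3p was at 0.83 (adjusted p = 0.112).

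The smooth muscle list summed to 213351 to 615456 RPM in duodenum replicates 3 to 5 against 85877 and 136640 RPM in replicates 1 and 2. The erythroid list summed to 22898 to 74447 RPM against 1733 and 2768 RPM. Of the 13 lists besides the epithelium list, these 2 were higher in replicates 3 to 5 without overlap, 5 were lower and 6 overlapped. The 5 lower lists were fibroblast, acinar, cardiac, myeloid and testis. The fibroblast list (miR-199 and miR-214) summed to 1343 to 1709 RPM in replicates 3 to 5 against 3071 and 5450 RPM. The part of these differences was not tested.

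**Figure D3:**
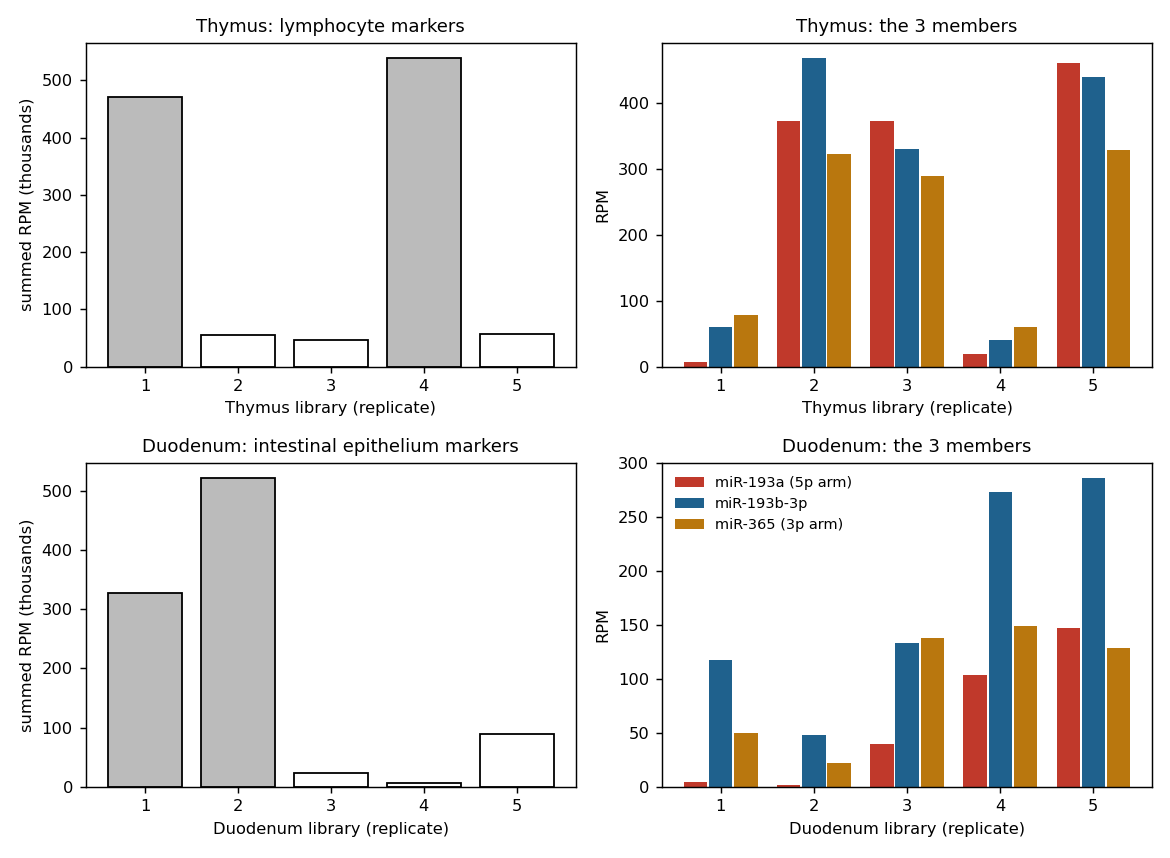
Summed RPM of the label markers (left) and RPM of the 3 members (right) in each library of thymus (top) and duodenum (bottom). White bars are libraries under 20% of the highest. The members are high in thymus replicates 2, 3 and 5 and in duodenum replicates 3 to 5, the same libraries in which the label markers are low.

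The order of the tissues was read from the 120 pairs of tissues in the same fit. The 3 members differed in 190 of 360 pair tests, against 41.9% of such tests over all miRNAs. miR-193b-3p differed in 74 pairs, miR-365 in 66 and miR-193a in 50. Liver was higher than each of the other 15 tissues in miR-193b-3p and in miR-365. The step from liver down to thymus was 2.21 ± 0.58 (SE, log2, adjusted p = 0.00142) for miR-193b-3p and 1.11 ± 0.45 (adjusted p = 0.0428) for miR-365.

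Between neighbours in the order of medians most steps were within the spread. miR-193b-3p differed in 2 of 15 steps, the second being from kidney to ileum (1.97 ± 0.57, SE, adjusted p = 0.00489). miR-365 differed in 4 of 15, and miR-193a in 1 of 15. The miR-193a step, from brain to skeletal muscle, ran against the order of medians (-2.69 ± 0.79, edgeR adjusted p = 0.00251). So did the miR-365 step from brain to colon (-1.10 ± 0.47, adjusted p = 0.0346). Thymus and sciatic nerve, the tissues with the highest miR-193a medians, did not pass the test of their difference (1.72 ± 1.03, adjusted p = 0.234). Thymus was higher than 12 of the other tissues in miR-193a, a count that rests on the 3 thymus libraries named above.

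Ratios within a library do not depend on how libraries are scaled, so the members were also set against each other. The log2 ratio of miR-193a to miR-193b-3p (counts + 0.5) had a median of -2.05 to -1.74 in plasma, lung, heart and duodenum. Liver stood lowest, at -5.14 (range -5.87 to -5.01), and pancreas highest, at 1.25 (range -1.29 to 4.09). Both differed from all other libraries by the exact rank-sum test (adjusted p = 1.39e-05 and 0.00158), and the other 14 tissues did not. In 4 of 5 pancreas libraries miR-193a had more reads than miR-193b-3p, replicate 4 being the exception. The liver libraries lay below every library of the other tissues except plasma replicate 3, which had 0 reads of miR-193a and a ratio of -5.13.

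The log2 ratio of miR-365 to the sum of miR-193a and miR-193b-3p was 1.01 in pancreas (range -0.03 to 1.26) and 0.74 in plasma (range -0.27 to 1.62), each above the rest (exact rank-sum test, adjusted p = 0.00218 and 0.0298). In liver it was -1.37 (range -1.59 to -1.28), which did not pass (adjusted p = 0.133). The plasma median was the value of replicate 1, which held 3 reads of the members in all. The fraction added to each count therefore weighed heavily on it. Plasma replicates 2 to 5 held 31 to 104 reads of the members. The plasma call was lost without the 9 libraries. The pancreas and plasma directions turn when the 3p arm of miR-193a takes the place of its 5p arm, with medians of -2.35 and -2.30 and adjusted p of 0.00108 and 0.0339. With the 3p arm the ratio of miR-193a to miR-193b-3p had a liver median of -4.10, which did not pass (exact rank-sum test, adjusted p = 0.0624). Sciatic nerve, at -5.59, was then lowest. This setting was added after the values were seen, and the arms are described next.

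**Figure D4:**
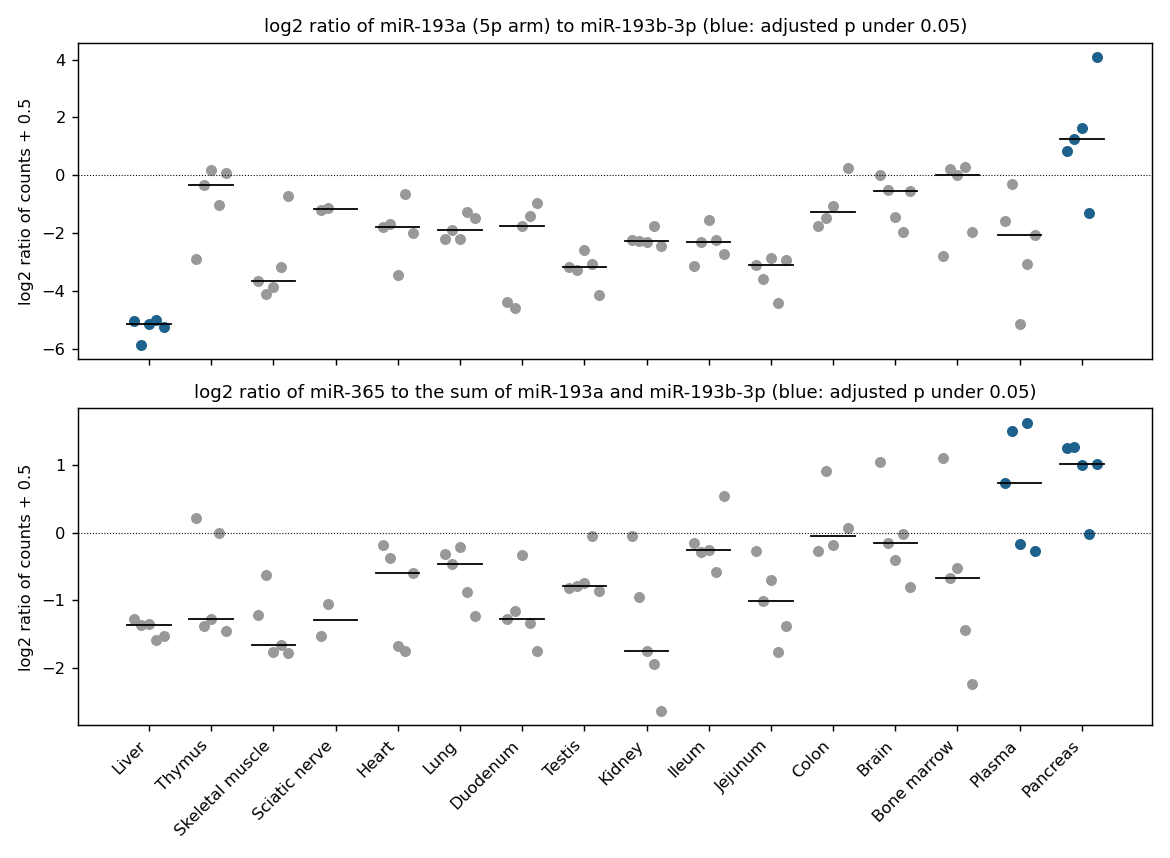
log2 ratio of read counts (plus 0.5) between members in each library, by tissue. Bars are medians, and tissues in blue differed from all other libraries by the exact rank-sum test (adjusted p under 0.05). Liver, at a median of -5.14, and pancreas, at 1.25, lie at opposite ends of the ratio of miR-193a (5p arm) to miR-193b-3p.

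The other arm of the miR-193a precursor, hsa-miR-193a-3p, had 7163 reads in all and a different pattern of tissues. Pancreas held 385, 365.4, 371, 324 and 357 RPM, a mean of 361 ± 22.9 (SD, n = 5), while the 5p arm held 13.0, 21.4, 23.5, 30.9 and 37.0 RPM in the same libraries. The fold of 10.7 in pancreas met TE (exact rank-sum test, adjusted p = 5.17e-05), and the edgeR log2 fold change was 4.28 ± 0.28 (SE, adjusted p = 4.15e-22). Pancreas was higher than each of the other 15 tissues. The call remained in every other setting, with libraries left out included. The highest single library was plasma replicate 2 at 418 RPM, and the plasma libraries spread over 10.9, 418, 42.5, 146 and 29.0 RPM.

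In thymus the balance of the arms differed between libraries. The 3p arm was at 50.0, 12.7, 7.99, 8.78 and 7.89 RPM in replicates 1 to 5, so that the 3 libraries with 373 to 461 RPM of the 5p arm held 12.7 RPM or less of the 3p arm. In replicate 1 the 3p arm was the higher one, beside 7.50 RPM of the 5p arm. The sciatic nerve libraries held 4.12 and 4.29 RPM of the 3p arm beside 105 and 94.5 RPM of the 5p arm. Brain held 0.869 to 4.35 RPM of the 3p arm beside 8.35 to 33.1 RPM of the 5p arm. The median log2 ratio of 5p to 3p reads was 4.42 in sciatic nerve and 3.60 in brain, and it was -3.97 in pancreas and -5.89 in plasma. Liver lay between them at -1.10 (range -1.77 to -0.08). In thymus it was 4.57, 5.50 and 5.70 in replicates 2, 3 and 5, the libraries low in lymphocyte markers, and -2.64 and 1.15 in replicates 1 and 4. Across the 16 tissue medians the arms had a Spearman rho of -0.47, given as a description, since both arms are counted in the same libraries. These medians include the 9 libraries that stood apart. No test was made of these arm ratios.

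**Figure D5:**
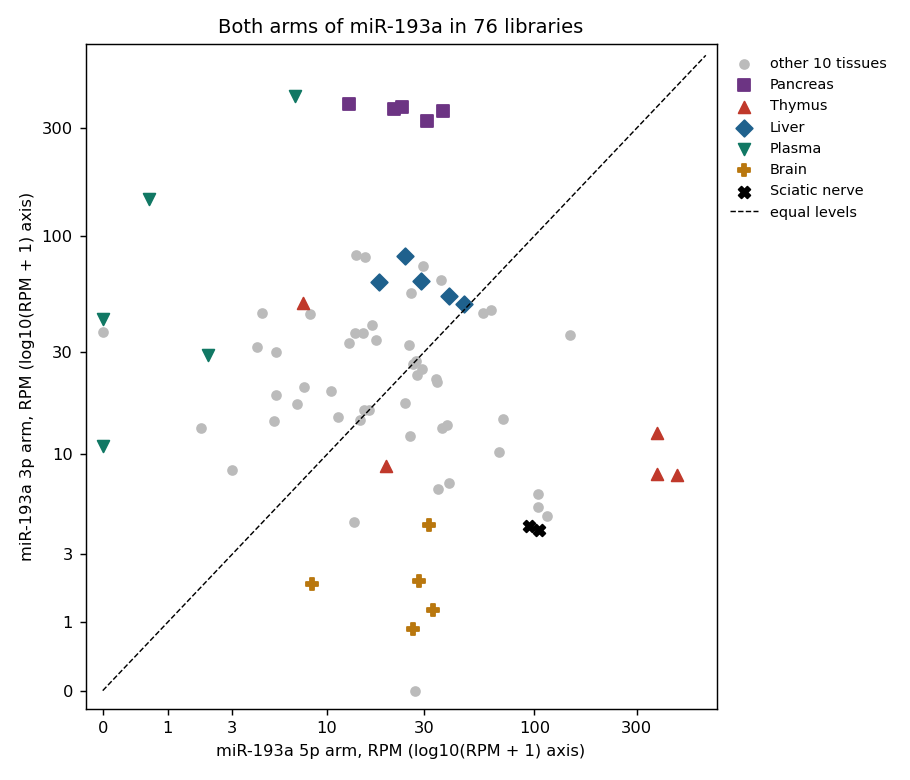
RPM of the 5p arm (x) and of the 3p arm (y) of miR-193a in 76 libraries, both on log10(RPM + 1) axes. The dashed line marks equal levels. The 5 pancreas libraries lie at 324 to 385 RPM of the 3p arm with at most 37.0 RPM of the 5p arm, while 3 thymus libraries lie at 373 to 461 RPM of the 5p arm with at most 12.7 RPM of the 3p arm.

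miR-193b had more reads of its 3p arm than of its 5p arm in every tissue. Its 5p arm, cfa-miR-193b, had 376 reads in all against 22017 of the 3p arm and was detected in 53 libraries. It was at 8.13 to 16.2 RPM in liver, where the edgeR log2 fold change was 3.12 ± 0.42 (SE, adjusted p = 5.40e-09). The median log2 ratio of 5p to 3p reads was -6.51 in liver and between -7.51 and -1.22 in the tissues as a whole. The ratio was nearest 0 in plasma, where both arms held few reads (21 of the 5p and 59 of the 3p arm). In plasma replicate 1 it was 0.

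The 5p arms of miR-365 carry separate names for the human copies, miR-365a and miR-365b. In the human genome miR-365a lies beside miR-193b and miR-365b beside miR-193a. Both were rare, with 189 and 164 reads. In liver hsa-miR-365a-5p had 96 reads and hsa-miR-365b-5p had 4, so that miR-365a-5p made up 96.0% of both (95% Wilson interval 90.2 to 98.4%). In pancreas, where miR-193b-3p was low, the reads were 0 and 9, which puts the share at up to 29.9% by the same interval. In sciatic nerve they were 3 and 14, a share of 17.6% (6.19 to 41.0%), and in thymus 14 and 25, a share of 35.9% (22.7 to 51.6%). The share did not follow the level of miR-193b-3p in every tissue. It was 76.9% in brain (10 and 3 reads), where miR-193b-3p was lower, and 33.3% in kidney (11 and 22 reads), where miR-193b-3p was higher, and jejunum had 5 and 2 reads (71.4%). These intervals cover counting error only and pool libraries that differ from each other. In liver miR-365a-5p was at 8.77, 17.7, 8.13, 20.03 and 6.18 RPM and met TE (fold 11.9, exact rank-sum test, adjusted p = 5.39e-05).

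The miRNAs most like each member were sought among 265 miRNAs with a tissue median above 100 RPM in at least 1 tissue, by the Spearman correlation of the 16 tissue medians. These are descriptions over libraries that the miRNAs share, and the medians include the 9 libraries that stood apart. The miRNA most like miR-193b-3p was miR-365, and the reverse (rho 0.86, Pearson r 0.84 on log2 medians). Without liver and plasma, the tissues farthest from the median in miR-365, r was 0.71. The next for both was miR-122, a hepatocyte miRNA (rho 0.74 and 0.85). Its level was 19138 to 29157 RPM in liver, but 0 to 5.77 RPM in duodenum and 3.80 to 120 RPM in thymus. Its ranks in such tissues rest on low counts. Then came hsa-miR-30a-3p, cfa-miR-214 and miR-193a for miR-193b-3p (rho 0.70, 0.69 and 0.67), and miR-193a, hsa-miR-125b-1-3p and cfa-miR-22 for miR-365 (rho 0.73, 0.70 and 0.69).

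The miRNAs most like miR-193a were hsa-miR-30a-3p (rho 0.85), hsa-miR-30c-2-3p (0.83), cfa-miR-130a (0.78), hsa-miR-125b-2-3p (0.78) and cfa-miR-99a (0.74). miR-365 stood in position 7 of its list and miR-193b-3p in position 10. Its own 3p arm stood in position 237 of 265. The thymus medians of miR-193a (373 RPM) and hsa-miR-30a-3p (1565 RPM) were values of libraries low in lymphocyte markers.

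A list of 21 miRNA stems described in fat-cell differentiation matched 42 rows of the table, arms included, and 36 of them entered the edgeR fit. In liver 18 were higher and 7 lower, with a median log2 fold change of 0.54 beside -0.36 over all miRNAs, of which 23.3% were higher and 12.5% lower. The largest in liver were cfa-miR-455, at 216 to 309 RPM and a log2 fold change of 3.36 ± 0.21 (SE, adjusted p = 4.07e-23), hsa-miR-455-3p (2.53 ± 0.24), cfa-miR-378 (1.92 ± 0.30) and cfa-miR-26b (1.80 ± 0.15). By TE, 2 of the 38 rows detected in liver were called, beside 1.91% of all miRNAs. Of the list, 2 rows were lower in thymus and 8 higher, with a median of -0.18 beside 0.19 over all miRNAs, of which 21.2% were higher and 5.21% lower. Without the 9 libraries the balance turned, with 2 rows higher and 4 lower and a median of -0.34 beside -0.11, where 16.1% of all miRNAs were higher and 6.07% lower.

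The 4 list members with the largest edgeR values in thymus fell into opposite groups of libraries. cfa-miR-378 was at 11242, 73560.1, 60222, 5621 and 51826 RPM and hsa-miR-30a-3p at 298, 1565, 1614, 180.5 and 2219.8 RPM in replicates 1 to 5. They were high where the 3 members were high. cfa-miR-155, known from activated lymphocytes, was at 2401, 133, 166, 3487 and 467 RPM and cfa-miR-196b at 168, 0, 1.14, 151 and 13.8 RPM, high where the members were low. For miR-196b the edgeR value of 1.78 and the means differed in direction, as thymus had a mean of 66.7 RPM against 140.5 RPM in all other libraries. With those 9 libraries left out, the edgeR value in thymus was -0.32 for miR-378 (adjusted p = 0.624) and -1.04 for miR-30a-3p (adjusted p = 0.0281), while it was 3.47 for miR-155 and 3.102 for miR-196b. The list was chosen with earlier results of these data known, so its counts are a description.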

How the data were processed

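Small RNA libraries of 76 samples from 16 tissues were analysed from the deposited counts. Before deposit the authors removed adaptors from the reads, aligned them with OSA to CanFam3.1 (the build in the submitters' processing notes) allowing 0 mismatches, dropped those at over 10 locations, and took as a count each read that covered 70% or more of a known dog, human or rat miRNA. The deposited RPM is the count scaled to the reads on miRNAs and matched the recomputed value within 2.89e-09 of itself. Missing rows were set to 0. Of 77 labelled samples, 1 colon sample had no values, and 1 sample name of the table was not used. Replicate numbers follow the order of the samples and were not used to pair libraries. The samples are listed in repeated runs of tissues, and whether a run is a single dog is not stated in the labels. Over 147 pairs of libraries of one tissue the lowest chi-square per degree of freedom was 10.3.

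Members, lists and tests were chosen with earlier results of these data known. Named miRNAs are the members, the other products of their precursors, the 5 most alike in tissue medians, and up to 4 list members with the largest edgeR fold change in liver and thymus. TE used a two-sided exact rank-sum test, adjusted by Benjamini-Hochberg over the miRNAs detected in a tissue. edgeR 4.0.16 (TMM, filterByExpr, quasi-likelihood test, R 4.3.3) fitted 480 miRNAs over 16 tissues, adjusted within each contrast. DESeq2 1.42.0, other scalings, thinning, a pseudocount of 1 read, and each library left out in turn were alternatives. Leaving out 9 libraries by their markers and the use of the 3p arm were added after the values were seen. Procedures were tested on simulated data. p-values measure the spread between samples, which the tests treat as independent. The paper states that the tissues came from 5 dogs, so libraries of different tissues can share a dog, and the tests ignore this. RNA from one dog in several tissues is not marked in the labels. Mature sequences and their positions were not analysed here.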

Additional observations from a re-analysis of the deposited data

Results flagged for a closer look

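In tissues of 4 or 5 libraries, the gap between an extreme library and its nearest neighbour was compared with the range of the tissue (Dixon's 95% limit) for the 3 members and hsa-miR-193a-3p. Of 60 such groups, 10 had a library past the limit. The limit flags about 1 in 20 groups of normally distributed values. Here it was set on RPM, some from few reads, and the miRNAs share libraries, so the count is a description. Pancreas replicate 4 held 76.2 RPM of miR-193b-3p, from 111 reads, beside a median of 7.29 in the other 4. Ileum replicate 4 was high in both miR-193a (27.5 RPM beside 6.50) and miR-193b-3p (130.4 beside 39.7). Its epithelium markers summed to 70657 RPM, 21.8% of the highest ileum library and just above the limit of 20%. Ileum replicate 5 stood at 21.8% too and was not flagged. Skeletal muscle replicate 5 held 105 RPM of miR-193a beside 26.6, from 33 reads, and its call rested on it. In brain, replicate 3 was low in miR-193a (8.35 RPM beside 30.1) and replicate 4 high in miR-193b-3p (111 beside 35.9). Colon replicate 5 was high in miR-193a (34.4 RPM beside 16.8). Bone marrow replicate 5 was high in miR-193b-3p (59.8 RPM beside 19.8, from 13 reads). For hsa-miR-193a-3p, thymus replicate 1 was high (50.0 RPM beside 8.38) and testis replicate 4 low (4.55 beside 15.7, from 1 read).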

How the results depend on the processing

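Under the other settings, 49 of 53 counts of called tissues or pairs stayed within 1.5 times the value given. With TMM library sizes miR-365 met TE in 0 tissues, and with libraries left out one at a time in 0 to 1. The ratio of miR-365 to the sum of both differed in 1 tissue after thinning to the smallest library and in 1 without the 9 libraries apart on markers. With single libraries left out it differed in 1 to 3 tissues, plasma being lost without plasma replicate 1, 2 or 4 and kidney gained without kidney replicate 1. With the 3p arm the ratio of miR-193a to miR-193b-3p differed in 5 tissues, and liver was not among them (exact rank-sum test, adjusted p = 0.0624). The liver median was then -4.10, above those of sciatic nerve (-5.59), thymus (-4.90) and brain (-4.14). Without the 9 libraries the direction turned for miR-193a in thymus (fold 0.499, log2 -0.63), miR-193b-3p in thymus (-1.16), miR-365 in thymus (-0.41), miR-193a in duodenum (-2.99) and miR-193b-3p in duodenum (-0.24). The alternative removes 3 of 5 libraries in each of these tissues, and the cause was not tested. No paired analysis was made, because the replicate numbers follow only the order of the samples and the labels do not name the dog. Shallow libraries limit miR-193a, with at most 12 reads in a plasma and 7 in a bone marrow library.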
